A study of Mus musculus with 23 samples.

Results

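The data cover 10 genes of intestinal antimicrobial defence and mucosal alarm, *Reg3a*, *Reg3b*, *Reg3g*, *Retnlb*, *S100a8*, *S100a9*, *Lcn2*, *Nos2*, *Duox2* and *Duoxa2*, out of 22350 genes counted in RNA-seq of organoids, 22230 in Ribo-seq of organoids and 22314 in Ribo-seq of mice. The genes were selected on their ribosome footprint values in the mice of this study, so their values in that comparison are given as a description, with no test, while the organoid cultures were tested. RNA-seq was available for WT organoids (VillinCre.ERT2.RPL22.HA, 2 lines), *Rptor* fl/fl organoids (VillinCre.ERT2.Rptor.fl/fl, 2 lines) and stem cell enriched (SCe) organoids (VillinCre.ERT2.RPL22.HA, 3 lines), which were cultured with 10 μM of the WNT-activating compound CHIR 99021 and 1.5 mM valproic acid. Ribo-seq, which sequences the fragments of RNA protected by ribosomes, was available for 3 *Rptor* fl/fl cultures (VillinCre.ERT2.Rptor.fl/fl.RPL22.HA) and 3 SCe cultures (VillinCre.ERT2.RPL22.HA), and for the small intestine of 3 WT mice (Lgr5Cre.ERT2.RPL22.HA) and 3 *Rptor* fl/fl mice (Lgr5Cre.ERT2.Rptor.fl/fl.RPL22.HA). All animals were C57BL/6. RPL22.HA is a ribosomal protein that carries an HA tag once Cre is active, and Cre was driven by the *Villin* promoter of the whole epithelium in organoids and by the *Lgr5* promoter of stem cells in adult mice. The labels call the *Rptor* fl/fl organoids and all mice untreated, whereas the study's methods describe tamoxifen, with mice sampled a day after a single injection. The labels give no age, while the methods state a range in weeks for the mice of both sexes used in the study.

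The epithelium of the intestine answers microbes and injury with secreted proteins that bind or kill bacteria and with enzymes that make oxidants. REG3 proteins are C-type lectins secreted by enterocytes and Paneth cells, whose transcription is raised by IL-22 through STAT3 and by microbial sensing. RELM beta (*Retnlb*) is a goblet cell product, S100A8 and S100A9 form the metal-binding complex calprotectin, which neutrophils carry in abundance, and lipocalin 2 (*Lcn2*) captures bacterial siderophores. *Nos2* encodes inducible nitric oxide synthase, and DUOX2 with its maturation factor DUOXA2 releases hydrogen peroxide at the apical surface. Organoids are grown without microbes, immune cells or stroma.

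Between 23802944 and 67598878 reads were assigned per RNA-seq library, between 1106178 and 8257457 per organoid Ribo-seq library and between 772077 and 8238388 per mouse library. Counts scaled to library size (TMM) are given as CPM. Levels of different genes are compared only as RPKM, which is also scaled to the length of the counted sequence. That sequence is the transcript in RNA-seq and a shorter one in Ribo-seq. The targeted gene *Rptor* stood at 14.8 and 15.5 CPM in *Rptor* fl/fl and 51.5 and 47.9 CPM in WT organoids by RNA-seq, and at 32.5, 34.3 and 36.7 CPM in *Rptor* fl/fl and 41.5, 39.5 and 44.5 CPM in WT mice. In organoid Ribo-seq it lay between 15.9 and 18.7 CPM in the cultures labelled *Rptor* fl/fl and between 15.2 and 41.8 CPM in SCe cultures, so the loss was not visible there, and directions drawn from those libraries rest on their labels. The stem cell marker *Lgr5* had 45.6, 8.49 and 6.29 CPM in *Rptor* fl/fl mice and 11.3, 7.72 and 8.72 CPM in WT mice. The mouse libraries also held genes of other cells, such as immunoglobulin A (*Igha*, 9061 to 11640 CPM), the enterocyte gene *Apoa1* (12610 to 16920 CPM), the smooth muscle gene *Myh11* (518 to 686 CPM) and pancreatic amylase (*Amy2a5*, 1456 to 3380 CPM), so their footprints stand for intestinal tissue more than for *Lgr5* cells alone.

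All 10 genes had more than 10 counts in every *Rptor* fl/fl mouse, against 6 genes in WT mice. In organoids RNA-seq detected 6 genes at more than 10 counts in every WT line, the same number in *Rptor* fl/fl lines and 3 in SCe lines, and Ribo-seq detected 5 in *Rptor* fl/fl and 2 in SCe cultures. This cut-off is not scaled to depth, so these numbers are not compared between groups. WT mouse 1 had 772077 reads, against at least 3085617 in *Rptor* fl/fl mice, and *Lcn2* missed the cut-off through its 6 counts there alone. SCe Ribo-seq cultures had at most 4242425 reads and those labelled *Rptor* fl/fl at least 5992941. No read of *S100a8* was assigned in any organoid library, which over the 154442266 reads of the SCe lines allows a level of up to 0.0198 CPM and over the 7329693 footprints of the SCe cultures up to 0.408 CPM. These limits, set at 3 counts, cover counting error only.

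**Figure D1:**
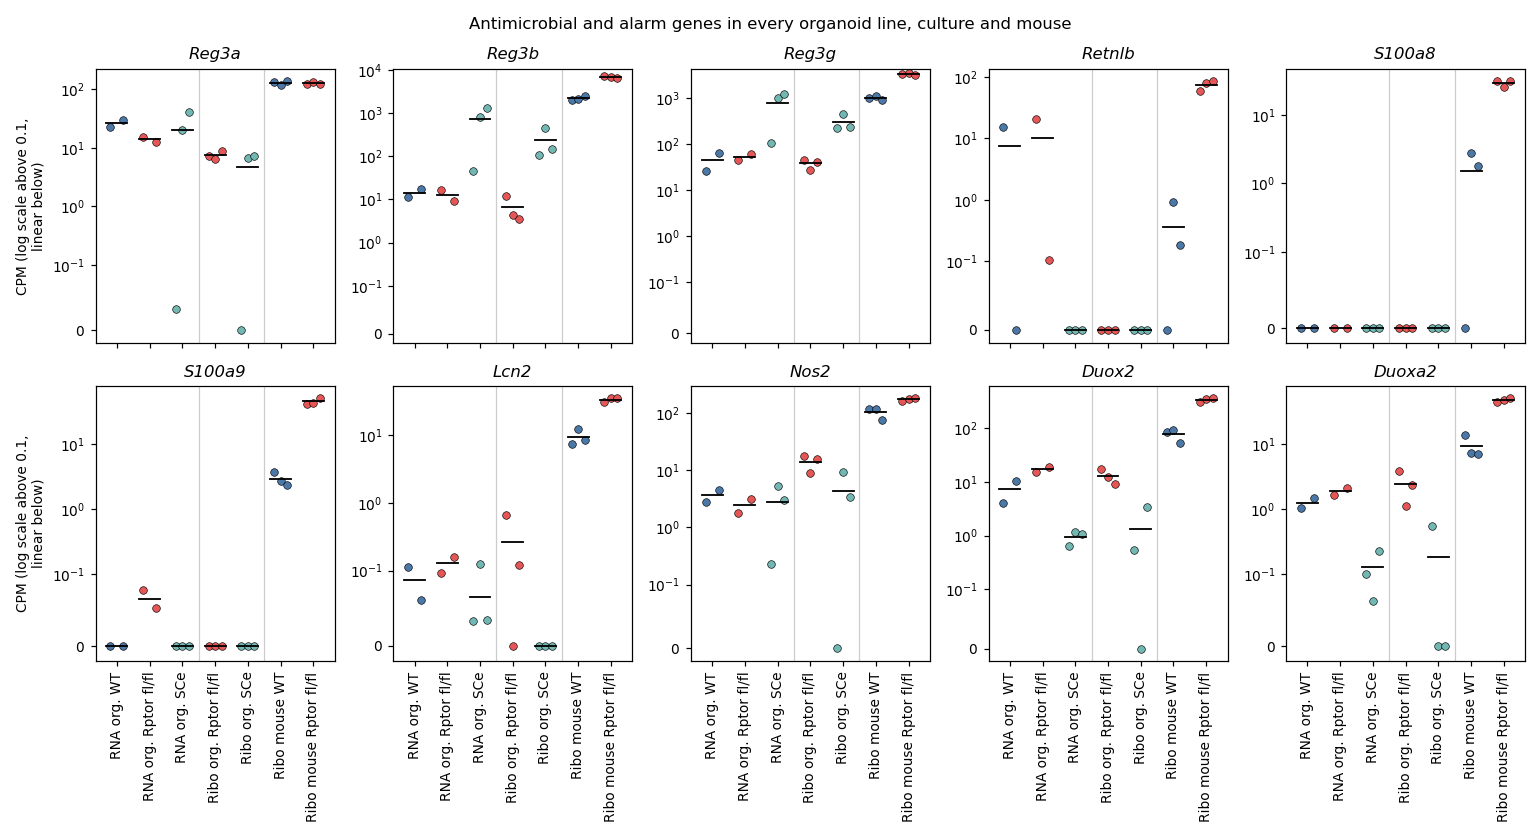
CPM of each gene (y axis, logarithmic above 0.1 and linear below) in 7 groups (x axis). Each point is an organoid line, culture or mouse, and the black line is the group mean. *S100a8* lies at 0 in all organoid groups, and 9 of the 10 genes, all but *Reg3a*, are higher in each *Rptor* fl/fl mouse than in each WT mouse.

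The 3 *Reg3* genes lie together on chromosome 6 of mm10, with *Reg3b* (ENSMUSG00000071356.7) at 78370657-78373466 and *Reg3a* (ENSMUSG00000079516.2) at 78380709-78383827 on the plus strand, and *Reg3g* (ENSMUSG00000030017.2) at 78466269-78468872 on the minus strand. Each has a transcript of 6 exons. The coding sequences are 74.4% identical between *Reg3a* and *Reg3b*, 73.7% between *Reg3a* and *Reg3g* and 76.7% between *Reg3b* and *Reg3g*. The first 90 coding bases are shown to let the divergence be seen, with capitals at the 30 positions where the sequences are not all the same.
Reg3a: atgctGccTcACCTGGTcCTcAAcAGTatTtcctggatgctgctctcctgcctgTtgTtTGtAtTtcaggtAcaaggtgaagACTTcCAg
Reg3b: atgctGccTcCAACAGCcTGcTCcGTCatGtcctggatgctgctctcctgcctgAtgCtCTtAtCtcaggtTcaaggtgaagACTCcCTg
Reg3g: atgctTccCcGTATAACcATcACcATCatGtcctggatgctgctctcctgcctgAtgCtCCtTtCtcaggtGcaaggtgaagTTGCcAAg
Of 496 stretches of 30 bases in *Reg3b*, the approximate length of a footprint, 6 (1.21%) also occur in *Reg3g*, and *Reg3a* shares 0 with either, so most reads could be assigned to a single gene.

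In mice *Reg3b* and *Reg3g* were about 3 times as high in *Rptor* fl/fl as in WT, and *Reg3a* was not. *Reg3b* stood at 7317, 6973 and 6511 CPM in *Rptor* fl/fl mice and at 2050, 2149 and 2487 CPM in WT mice, a log2 difference of 1.63 (standard error 0.0791, 3.10-fold). *Reg3g* had 3348, 3456 and 3272 CPM against 987, 1129 and 928 CPM, a difference of 1.73 (standard error 0.0778, 3.31-fold). For both genes the lowest *Rptor* fl/fl mouse was well above the highest WT mouse. *Reg3a*, in contrast, had 121, 131 and 124 CPM against 133, 118 and 138 CPM, with a log2 difference of -0.06 (standard error 0.0891), and the groups overlapped. In bulk samples such as these a change in the number of cells of a type and a change in RNA per cell cannot be told apart.

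The bases before the 3 annotated starts are shown because the genes neighbour each other and 2 of them differed in the same direction in mice. They are the 250 bases upstream of the RefSeq start in GRCm38.p6, at chr6:78380459-78380708 (plus strand) for *Reg3a*, chr6:78370635-78370884 (plus strand) for *Reg3b* and chr6:78468875-78469124 (minus strand) for *Reg3g*, with matches to the motifs below in capitals. Most of the *Reg3b* window lies inside the gene as GENCODE annotates it.
Reg3a: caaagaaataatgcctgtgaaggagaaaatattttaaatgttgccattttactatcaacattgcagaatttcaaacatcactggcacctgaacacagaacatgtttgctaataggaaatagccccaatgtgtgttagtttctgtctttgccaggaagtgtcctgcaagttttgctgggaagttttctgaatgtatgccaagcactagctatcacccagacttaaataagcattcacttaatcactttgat
Reg3b: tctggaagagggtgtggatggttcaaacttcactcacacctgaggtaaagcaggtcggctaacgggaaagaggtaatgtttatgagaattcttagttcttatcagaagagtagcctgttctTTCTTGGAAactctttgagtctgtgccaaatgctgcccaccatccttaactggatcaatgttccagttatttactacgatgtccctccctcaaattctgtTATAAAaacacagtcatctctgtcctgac
Reg3g: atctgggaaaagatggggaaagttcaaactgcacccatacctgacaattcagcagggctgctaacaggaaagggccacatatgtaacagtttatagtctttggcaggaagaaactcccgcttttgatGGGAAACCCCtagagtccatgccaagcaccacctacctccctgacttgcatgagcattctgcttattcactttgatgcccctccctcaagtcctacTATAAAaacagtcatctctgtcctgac
Aligned over their whole length, the *Reg3b* and *Reg3g* stretches were 68.9% identical, against 49.3% for *Reg3a* with *Reg3b* and 50.6% for *Reg3a* with *Reg3g*. The letters TATAAA, searched on the gene's strand, occur 29 bases before the start of *Reg3b* and 27 before that of *Reg3g*, are not in the *Reg3a* window, and are in 7.59% of the 32851 RefSeq promoters of the same length. The STAT motif TTCNNNGAA, searched on both strands, matched in *Reg3b* alone of the 8 genes with a promoter entry (7.02% of all promoters), and the NF-kB consensus matched in *Reg3g* alone (7.25%). *Retnlb* and *Nos2* had no entry. A match is a description of the letters and not evidence of a bound factor.

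The mix of the paralogues in WT and *Rptor* fl/fl organoids was unlike that in mice. By level per length, *Reg3b* made up 63.1% to 69.9% of the summed *Reg3* level in the 6 mice, *Reg3g* 26.4% to 33.6%, and *Reg3a* 3.33% to 4.04% in WT and 1.07% to 1.2% in *Rptor* fl/fl mice. In WT organoid lines *Reg3a* held 35.5% and 25.8% and *Reg3b* only 20.8% and 16.3%, and *Reg3g* led with 43.7% and 57.9%. *Rptor* fl/fl organoids leaned further to *Reg3g*, with 58.6% and 73.7% in RNA-seq and 70.9%, 71.3% and 77.2% in Ribo-seq. In SCe organoids, where *Reg3b* and *Reg3g* were far higher, *Reg3a* made up 0.0205%, 0.991% and 1.42% of RNA and 0%, 0.741% and 1.86% of footprints. *Reg3b* there made up 31%, 47% and 53.3% of RNA and 31.5%, 50% and 37% of footprints. WT organoids were read by RNA-seq alone and mice by footprints alone. Mouse footprints were counted on sequences that include the 5′ untranslated region and organoid footprints on the coding sequence. These shares were therefore set side by side without a test.

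**Figure D2:**
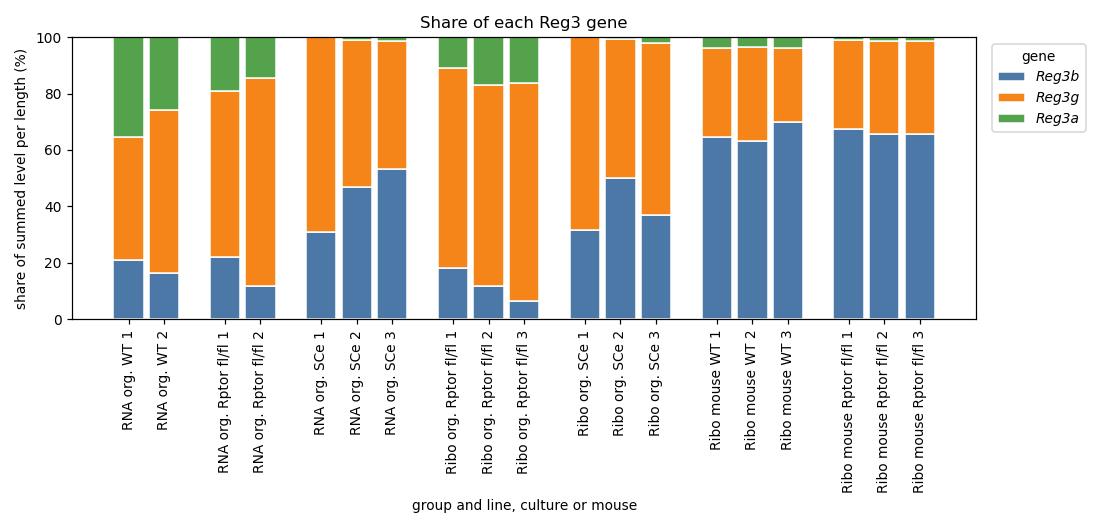
Share of each *Reg3* gene in the summed level per length of the 3 genes (y axis, percent) in each organoid line, culture and mouse (x axis). *Reg3b* makes up 63.1% to 69.9% in mice, whereas *Reg3g* is the larger part in WT and *Rptor* fl/fl organoids.

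*Retnlb*, *S100a8* and *S100a9* had few or no footprints in WT mice and were present in every *Rptor* fl/fl mouse, and *Lcn2* was counted in all mice. *Retnlb* (ENSMUSG00000022650.7, chromosome 16 of mm10, 48816856-48818892) had 0, 2 and 1 counts in WT mice and 179, 264 and 680 counts in *Rptor* fl/fl mice, or 58.7, 80.1 and 85.5 CPM. With 3 counts in the whole WT group, the ratio of the groups was 223, with a 95% counting interval from 75.9 to 1080 that leaves out the spread between mice. *S100a8* (ENSMUSG00000056054.9) had 0, 6 and 10 counts in WT and 95, 83 and 244 in *Rptor* fl/fl mice, a ratio of 15.7 (counting interval 9.54 to 27.7). Its partner *S100a9* (ENSMUSG00000056071.12), which lies close by on chromosome 3, had 3, 6 and 13 against 128, 144 and 404 counts, a ratio of 18.3 (12.0 to 29.3). The pair thus differed by similar factors, and no WT mouse reached any *Rptor* fl/fl mouse. *Lcn2* (ENSMUSG00000026822.14, chromosome 2) stood at 7.55, 12.3 and 8.54 CPM in WT and at 30.5, 35.2 and 35.1 CPM in *Rptor* fl/fl mice, a log2 difference of 1.82 (standard error 0.181).

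Oxidant-producing enzymes were present in all mice and higher in *Rptor* fl/fl mice. *Nos2* (ENSMUSG00000020826.8, chromosome 11) had the smallest difference of the 9 genes that were higher, from 117, 120 and 77.1 CPM in WT to 162, 181 and 182 CPM in *Rptor* fl/fl mice, a log2 difference of 0.81 (standard error 0.137). *Duox2* had 84.3, 92.7 and 53.3 CPM in WT and 313, 355 and 360 CPM in *Rptor* fl/fl mice, a difference of 2.25 (standard error 0.153, 4.75-fold). *Duoxa2* had 13.8, 7.27 and 6.91 against 43.9, 47.9 and 50.3 CPM, a difference of 2.60 (standard error 0.19, 6.08-fold). *Duox2* and *Duoxa2* therefore differed in the same direction and by factors close to each other. In all, the groups did not overlap for 9 of the 10 genes, each higher in *Rptor* fl/fl mice, and the median log2 difference of the 10 was 2.04. Among all 11515 genes tested, 16.7% were higher without overlap and 14.4% lower, and the median was -0.0152. The genes were chosen on this contrast, so nothing is read from the count.

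*Duox2* (ENSMUSG00000068452.8, minus strand, 122279247-122298449) and *Duoxa2* (ENSMUSG00000027225.7, plus strand, 122298900-122302885) lie head to head on chromosome 2 of mm10 and are transcribed away from each other. The 250 bases before each RefSeq start are shown because the genes differed in the same direction in mice, at chr2:122298228-122298477 (minus strand) for *Duox2* and chr2:122298650-122298899 (plus strand) for *Duoxa2*, with motif matches in capitals. The RefSeq start of *Duox2* lies inside the gene as GENCODE annotates it, so most of its window is within the gene.
Duox2: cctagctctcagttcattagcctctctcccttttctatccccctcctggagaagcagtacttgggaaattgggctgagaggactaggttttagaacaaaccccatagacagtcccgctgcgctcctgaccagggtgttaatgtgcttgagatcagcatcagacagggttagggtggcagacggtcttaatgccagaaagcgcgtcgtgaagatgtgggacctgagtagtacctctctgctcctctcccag
Duoxa2: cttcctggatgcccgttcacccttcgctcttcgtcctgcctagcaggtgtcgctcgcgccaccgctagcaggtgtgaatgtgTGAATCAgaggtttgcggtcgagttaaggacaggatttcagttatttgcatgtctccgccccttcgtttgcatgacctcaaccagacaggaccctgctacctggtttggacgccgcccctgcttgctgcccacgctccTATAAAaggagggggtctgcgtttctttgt
The *Duoxa2* side holds the letters TATAAA 30 bases before the start and the AP-1 motif TGANTCA, searched on both strands and present in 6.75% of all promoters, while the *Duox2* side holds none of the 4 motifs. *Duox2* shares 724 of its 4606 stretches of 30 coding bases (15.7%) with its paralogue *Duox1*, so part of its reads could be assigned to either gene. *Duox1* itself had at most 5 counts in every organoid line, culture and mouse.

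**Figure D3:**
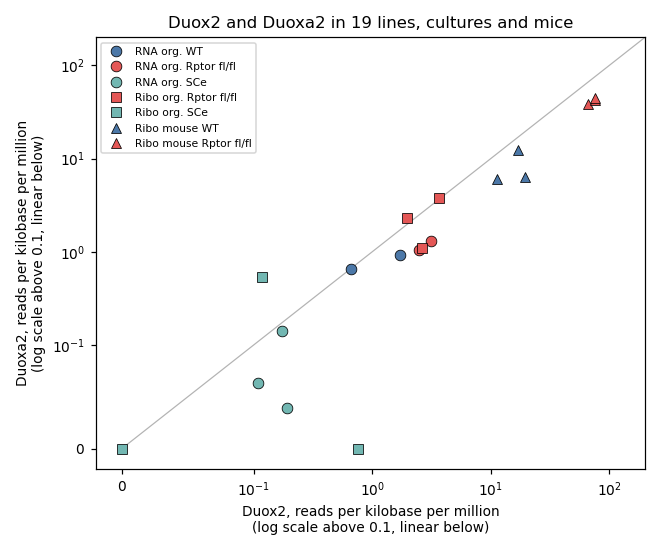
Level per length of *Duox2* (x axis) and *Duoxa2* (y axis) in 19 lines, cultures and mice, in RPKM on scales that are logarithmic above 0.1 and linear below. The grey line marks equal levels. SCe organoids lie lowest within RNA-seq and within Ribo-seq, and *Rptor* fl/fl mice highest, with 65.3 to 75.1 for *Duox2* and 38.7 to 44.3 for *Duoxa2*. The counted sequences differ in length between the assays.

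Per length, the order of the genes in WT mice was *Reg3b* (3630 ± 374 RPKM, SD, n = 3), *Reg3g* (1674 ± 171), *Reg3a* (203 ± 16.5), *Nos2* (28.2 ± 6.47), *Duox2* (15.9 ± 4.30), *Lcn2* (13.2 ± 3.49), *Duoxa2* (8.23 ± 3.44), *S100a9* (6.85 ± 1.72), *S100a8* (3.37 ± 3.09) and *Retnlb* (0.604 ± 0.794). From *Duox2* downwards each gene overlapped the next in its range over mice. In *Rptor* fl/fl mice the first 3 places were held by the same genes, and *Retnlb* stood in place 4 (127 ± 24 RPKM), followed by *S100a9* (106 ± 10.8), *Duox2* (71.8 ± 5.61), *S100a8* (64.6 ± 7.42), *Nos2* (47.7 ± 3.66), *Lcn2* (47.0 ± 3.75) and *Duoxa2* (41.8 ± 2.84). *Retnlb* overlapped *S100a9*, *Duox2* overlapped *S100a8*, and the last 3 overlapped their neighbours. WT organoids kept *Reg3g* (57.2 ± 34, n = 2), *Reg3a* (31.6 ± 6.57) and *Reg3b* (19.3 ± 5.06) in front, *Retnlb* (10.9 ± 15.4) next through line 1 alone, and *Duox2* (1.2 ± 0.751), *Nos2* (0.872 ± 0.277) and *Duoxa2* (0.789 ± 0.192) below, each overlapping the next. Below the *Reg3* genes the order depended on the length used. With the effective length estimated by Salmon, *S100a9* (251) stood above *Retnlb* (219) in *Rptor* fl/fl mice, and *S100a8* (145) above *Duox2* (75.8). *Lcn2* (72.2) and *Duoxa2* (53.5) then stood above *Nos2* (51.1). In WT mice *Lcn2* (20.3) stood above *Duox2* (16.8) on that scale.

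Other defence genes of the mice were read from lists compiled with earlier results known. Of 17 NF-kB and acute-phase genes that passed the count filter, 12 were higher in *Rptor* fl/fl mice without overlap and 0 lower, with a median log2 difference of 0.475. The most counted were *Nfkbia*, an inhibitor of NF-kB (90.6, 76.3 and 75.2 CPM in WT and 94.1, 107 and 107 CPM in *Rptor* fl/fl mice), and the acute-phase protein gene *Saa3* (20.1, 34.5 and 26.2 against 114, 119 and 132 CPM). In the IL-22 and IL-17 signalling list 8 of 14 genes were higher without overlap and 2 lower, *Stat3* among the higher (211, 191 and 200 against 256, 276 and 280 CPM). Of the cytokines themselves, *Il22* had no footprint in any mouse and *Il17a* at most 0.303 CPM, whereas *Il1b* had 6.29, 5.00 and 3.45 CPM in WT and 11.2, 10.3 and 11.7 CPM in *Rptor* fl/fl mice. Of microbial sensing genes 5 of 12 were higher and 1 lower, where 16.7% and 14.4% of all genes were. Among the other REG genes, *Reg1* was lower in each *Rptor* fl/fl mouse (769, 736 and 720 against 935, 882 and 1125 CPM) and *Reg2* higher (190, 226 and 220 against 98.1, 58.6 and 129 CPM). Among other antimicrobial proteins *Zg16*, a goblet cell lectin, was higher (4799, 5371 and 5138 against 3699, 3791 and 3757 CPM), with 3 of 8 genes higher and 2 lower in all.

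Markers of other cells moved with some of these values. Summed over 10 neutrophil markers, WT mice had 2.52 to 5.00 CPM and *Rptor* fl/fl mice 11.6 to 12.5 CPM, with none of the markers passing the count filter and *Camp* and *Elane* at 0 in all mice. *S100a8* and *S100a9* together had 3.77 to 5.45 CPM in WT and 68.8 to 81.5 CPM in *Rptor* fl/fl mice. Summed haemoglobin and *Alas2* footprints, a sign of red blood cells, were 153 to 177 CPM in WT and 812 to 986 CPM in *Rptor* fl/fl mice. Macrophage markers (324 to 367 against 366 to 397 CPM) and lymphocyte markers (116 to 123 against 113 to 123 CPM) overlapped between the groups. Plasma cell markers were lower in *Rptor* fl/fl mice (12110 to 12670 against 9854 to 10650 CPM), goblet cell markers higher (25150 to 25440 against 29810 to 33370 CPM) and Paneth cell markers lower (10130 to 10910 against 5841 to 9453 CPM). Summed enterocyte markers were higher (48970 to 50210 against 54410 to 59020 CPM) and stem cell markers lower (571.5 to 595.4 against 361.9 to 553.5 CPM). By gene, 5 of 8 enterocyte markers were higher without overlap and 1 lower, *Sis* (6301, 6927 and 6423 against 5704, 5018 and 4295 CPM). Of 6 stem cell markers 2 were lower without overlap and 0 higher. *Olfm4* made up most of that sum, and *Smoc2* had a positive log2 difference (0.773). Of all genes 16.7% were higher and 14.4% lower. *Rptor* fl/fl mouse 1 stood apart from the other 2 in *Lgr5* and in the Paneth cell gene *Itln1* (3415 against 1183 and 1176 CPM). The part of these cells in the values of the 10 genes was not tested.

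**Figure D4:**
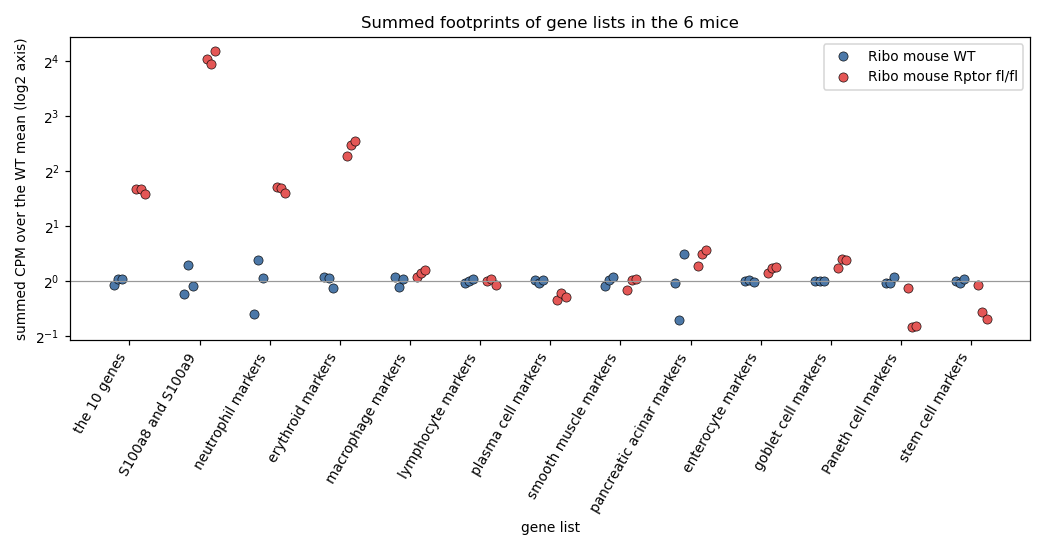
Summed CPM of gene lists in each mouse, divided by the WT mean (y axis, log2 scale), with a point per mouse. *S100a8* and *S100a9* lie 15.4 to 18.2 times above the WT mean in *Rptor* fl/fl mice, neutrophil markers 3.02 to 3.25 times and erythroid markers 4.83 to 5.86 times, while macrophage and lymphocyte markers stay near 1.

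The genes whose footprints followed the summed *Reg3* level most closely over the 6 mice, among 11505 other genes, were *Gapdh* (r = 0.9992 of log2 CPM with 1 added), *Thbs1* (0.9991), *Enpp3* (0.9988), *Cd14* (0.9985) and *Apob* (0.9981). All of them separated the genotypes, from 66.7, 73.1 and 74.1 to 214, 222 and 211 CPM for *Thbs1*, which encodes thrombospondin 1, and from 7.55, 8.18 and 9.27 to 34.4, 32.4 and 33.5 CPM for *Cd14*, a co-receptor for lipopolysaccharide. With 2 groups of 3 mice any gene that differs between genotypes and varies little within them reaches a value near 1, so the correlation is a description only.

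Whether loss of *Rptor* changed these genes in culture was asked by RNA-seq of *Rptor* fl/fl against WT organoids. The WT lines carried RPL22.HA and the *Rptor* fl/fl lines did not, which cannot be told apart from the change in *Rptor*. The difference seen in mice was not seen in *Reg3b* or *Reg3g*, and a single gene of the 7 that passed the count filter met the threshold. *Reg3a* fell, from 22.2 and 29.9 CPM in WT to 15.6 and 12.7 CPM in *Rptor* fl/fl lines (log2 difference -0.88, standard error 0.186, edgeR adjusted p = 0.0348). *Reg3b* had 11.5 and 17.3 against 16.4 and 9.24 CPM (-0.17, 95% interval -1.06 to 0.72) and *Reg3g* 26.2 and 64.2 against 45.6 and 61.3 CPM (0.24, interval -0.90 to 1.39), with overlap in both. Over all genes 11.6% were called higher and 11% lower. The *Reg3a* call was lost without *Rptor* fl/fl line 1 (adjusted p = 0.0644), *Rptor* fl/fl line 2 (0.107) or WT line 2 (0.0991), and *Reg3g* passed without WT line 2 (1.03, adjusted p = 0.0451). A gene past the threshold in 1 system and not in the other is not thereby shown to differ between mice and organoids, and that difference was not tested.

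*Duox2* and *Duoxa2* were higher in both *Rptor* fl/fl lines than in both WT lines but did not pass. *Duox2* had 4.08 and 10.5 CPM in WT and 15.2 and 18.99 CPM in *Rptor* fl/fl lines (log2 difference 1.23, interval 0.0528 to 2.41, adjusted p = 0.115), and *Duoxa2* 1.04 and 1.47 against 1.66 and 2.08 CPM (0.58, interval -0.15 to 1.30, adjusted p = 0.193). *Duox2* passed when DESeq2 was used (adjusted p = 0.0123), with technical libraries as separate replicates (0.00965), with the replicate number as a block (1.35, 0.0136) and without WT line 2 (2.06, 0.0158), and *Duoxa2* with technical libraries separate (0.0462). *Nos2* had 2.83 and 4.48 against 1.76 and 3.17 CPM (-0.57, adjusted p = 0.326). *Retnlb* was present in line 1 of each genotype (15.2 CPM in WT and 20.5 CPM in *Rptor* fl/fl) and nearly absent from line 2 (0 and 0.105 CPM), so its difference of 0.43 has an interval from -5.44 to 6.30. *Lcn2* had 3 to 9 counts per line, *S100a9* 0 counts in WT and 4 and 3 in *Rptor* fl/fl lines, and *S100a8* none, and these genes were not tested.

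**Figure D5:**
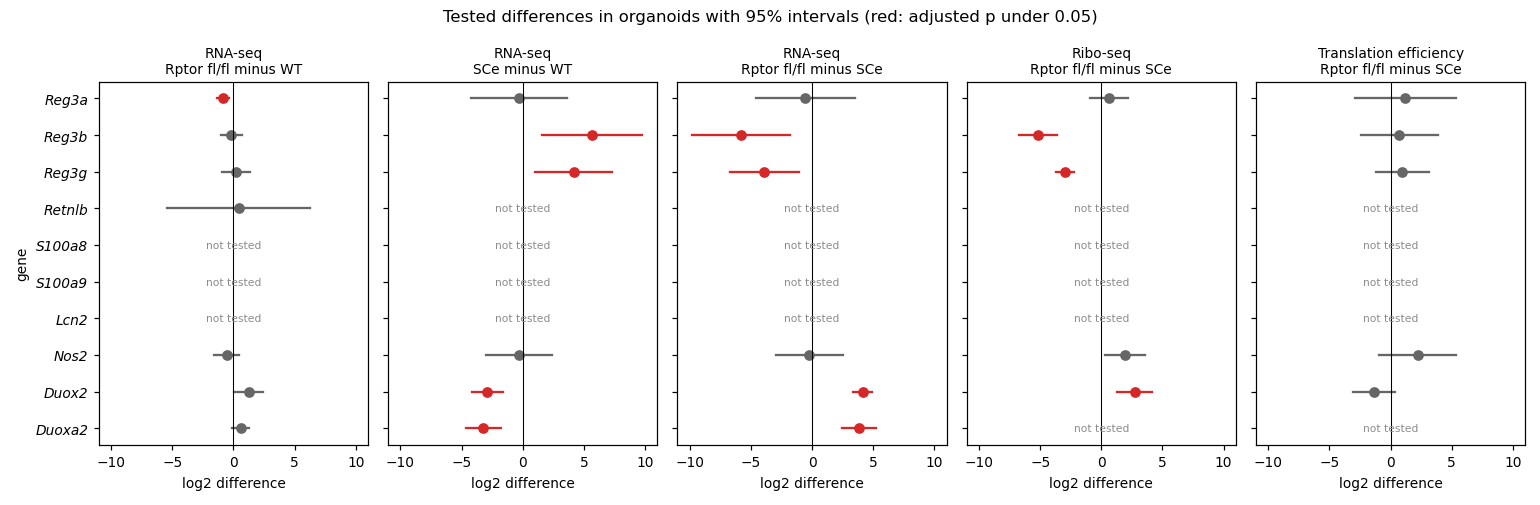
Log2 differences of the 10 genes in 5 organoid comparisons (x axis), with 95% intervals from edgeR as bars and genes on the y axis. Red marks an adjusted p under 0.05. *Reg3b* and *Reg3g* are higher in SCe than in WT or *Rptor* fl/fl organoids, *Duox2* and *Duoxa2* lower, and no gene passes for translation efficiency.

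Genes of the same pathways were read in *Rptor* fl/fl organoids beside the 11.6% of all genes called higher and 11% called lower. The lists were compiled with earlier results of these data known. Their counts, here and in the other organoid comparisons, are therefore a description and not a test of the lists. Of 15 genes of IL-22 and IL-17 signalling 6 were called higher and 0 lower, led by *Il17re*, the receptor for IL-17C (log2 difference 2.96, adjusted p = 0.00565), and *Il10rb*, a chain of the IL-22 receptor (0.41, adjusted p = 0.0193), with a list median of 0.181 against -0.00494 over all genes. In the NF-kB and acute-phase list 5 of 15 were called higher and 0 lower, with *Tnfaip3* (1.00, adjusted p = 0.0101) and *Nfkb2* (0.93, adjusted p = 0.0108) first and a median of 0.436. Of microbial sensing genes 2 were called higher and 2 lower of 15, which is close to the shares over all genes, with *Tlr4*, the lipopolysaccharide receptor, higher (2.34, adjusted p = 0.00863) and *Nlrp6*, an inflammasome sensor, lower (-1.26, adjusted p = 0.0108). Of 8 other antimicrobial genes *Zg16* (2.40, adjusted p = 0.00855) and 1 more were called higher and 4 lower, among them the Paneth cell lysozyme *Lyz1* (-3.15, adjusted p = 0.0135), and of the other REG genes *Reg4* was called lower (-2.37, adjusted p = 0.0186). Of 6 NADPH oxidase genes *Cyba* (0.69, adjusted p = 0.0292) and *Noxa1* (0.61, adjusted p = 0.0314) were called higher. *Tnf* was the only cytokine tested and rose (1.93, adjusted p = 0.0383). Cell type markers moved as well, with 6 of 7 Paneth and 5 of 6 stem cell markers called lower, 5 of 8 goblet cell markers called higher and 1 of 8 enterocyte markers called lower. Their part in the values of the 10 genes was not tested.

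SCe organoids had far more *Reg3b* and *Reg3g* and less *Duox2* and *Duoxa2* than WT organoids. SCe line 1 stood apart, with a correlation of log2 CPM over genes of 0.963 and 0.964 with the other lines, which correlated at 0.996, and with few reads of the enterocyte genes *Sis* (2.61 against 1085 and 1556 CPM) and *Fabp1* (9.998 against 1406 and 1746 CPM). Of 6 stem cell markers 0 were called higher than in WT and 2 lower, *Olfm4* (-5.55, adjusted p = 0.00351) and *Ascl2* (-1.81, adjusted p = 0.0093). *Reg3b* had 45.2, 801 and 1323 CPM in SCe lines against 11.5 and 17.3 CPM in WT (log2 difference 5.67, standard error 1.58, adjusted p = 0.0398), and *Reg3g* 108, 1005 and 1265 against 26.2 and 64.2 CPM (4.16, standard error 1.23, adjusted p = 0.0464). SCe line 1 was much the lowest of the 3 for both. *Duox2* fell to 0.635, 1.16 and 1.07 CPM (-2.89, standard error 0.497, adjusted p = 0.0102) and *Duoxa2* to 0.1, 0.0628 and 0.224 CPM (-3.22, standard error 0.568, adjusted p = 0.0109). *Reg3a* was spread from 0.0334 CPM in line 1 to 20.0 and 41.4 CPM in the other lines (-0.32, adjusted p = 0.882), and *Nos2* in the same way from 0.234 to 5.31 and 2.99 CPM (-0.32, adjusted p = 0.829). Of the 6 genes tested 2 were thus called higher and 2 lower, where 22.4% and 19.9% of all genes were. *Retnlb* and both S100 genes had no read in SCe lines. The calls rested on few lines. *Reg3b* and *Reg3g* did not pass without SCe line 2 (adjusted p = 0.0870 and 0.103), SCe line 3 (0.0874 and 0.107), WT line 1 (0.200 and 0.217) or WT line 2 (0.179 and 0.152), while without SCe line 1 both passed (6.22, 0.000202 and 4.67, 0.000747), as did *Duox2* (-2.69, 0.00558) and *Duoxa2* (-3.12, 0.00538). *Duoxa2* did not pass without WT line 1 (0.0571) or WT line 2 (0.0771), nor *Duox2* without WT line 2 (0.0573).

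Goblet cell markers fell along with the *Duox* genes in SCe lines, with 6 of 8 called lower and 0 higher, led by *Agr2* (-3.31, adjusted p = 0.00129). Enterocyte markers had 1 of 8 called lower. Some markers of other cells were called higher in SCe lines from few reads. The smooth muscle gene *Des* had 22, 34 and 30 counts, *Cnn1* 7, 37 and 35, the haemoglobin gene *Hba-a1* 26, 19 and 26 and the plasma cell gene *Mzb1* 9, 18 and 10, each against 0 in both WT lines, while the other plasma cell marker tested, *Derl3*, was called lower (-3.60, adjusted p = 0.00177). Of 4 neutrophil markers tested 2 were called higher, *Prtn3* (17, 25 and 12 counts against 1 in each WT line) and *Cxcr2* (0.91, adjusted p = 0.0217), while *Elane* and *Camp* had no read. The other antimicrobial gene that stood out was *Pla2g2a*, a secreted phospholipase (5.01, adjusted p = 0.00278), while *Zg16* fell (-4.46, adjusted p = 0.00631). In the signalling lists 5 IL-22 and IL-17 genes were called higher and 7 lower of 15, with *Osmr* at 4.93 (adjusted p = 0.0034), although it had only 14 to 48 counts in SCe and 1 in each WT line. The part of cell types in the values of the 10 genes was not tested.

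Set directly against SCe organoids, *Rptor* fl/fl organoids had less *Reg3b* and *Reg3g* and more *Duox2* and *Duoxa2*. In RNA-seq the log2 differences were -5.81 for *Reg3b* (standard error 1.58, adjusted p = 0.0355), -3.89 for *Reg3g* (1.12, adjusted p = 0.0411), 4.14 for *Duox2* (0.297, adjusted p = 0.00128) and 3.82 for *Duoxa2* (0.551, adjusted p = 0.00583). *Reg3a* (-0.54, adjusted p = 0.809) and *Nos2* (-0.22, adjusted p = 0.888) did not pass, although *Reg3a* did without SCe line 1 (-1.12, adjusted p = 0.0359). These 2 higher and 2 lower of 6 tested genes compare with 21% and 21.8% of all genes. The *Duox* calls held in each of 10 alternatives, and those of *Reg3b* and *Reg3g* in 5 of 10. They were lost with the replicate number as a block (adjusted p = 0.167 and 0.1) and without *Rptor* fl/fl line 1 (adjusted p = 0.161 and 0.205), *Rptor* fl/fl line 2 (0.193 and 0.183), SCe line 2 (0.0750 and 0.0895) or SCe line 3 (0.0779 and 0.0953), and kept without SCe line 1 (-6.38, 0.000268 and -4.41, 0.000157). The comparisons share the SCe and *Rptor* fl/fl lines with those above and are not independent of them.

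Footprints labelled *Rptor* fl/fl came from other cultures than the RNA, which also carried RPL22.HA, unlike the *Rptor* fl/fl lines of RNA-seq. For SCe the genotype and numbers were the same in both assays, and the labels do not say whether lines were shared. Summed Y-linked reads by number were 7.39, 231 and 201 CPM in SCe RNA and 2.16, 115 and 89.9 CPM in SCe footprints. The SCe footprints may therefore not be independent of the SCe RNA. Genotype and culture medium again differed together between the groups and cannot be told apart. *Reg3b* had 11.8, 4.44 and 3.53 CPM in the cultures labelled *Rptor* fl/fl and 107, 461 and 147 CPM in SCe cultures (log2 difference -5.18, standard error 0.688, adjusted p = 0.0025), and *Reg3g* 45.8, 27.3 and 41.6 against 230, 451 and 242 CPM (-3.00, standard error 0.323, adjusted p = 0.00122). *Duox2* had 17.1, 12.2 and 9.24 against 0.541, 0 and 3.46 CPM (2.72, standard error 0.635, adjusted p = 0.0214). For each of these the groups did not overlap. *Reg3a* had 7.13, 6.50 and 8.88 against 0, 6.82 and 7.38 CPM (0.61, adjusted p = 0.585) and *Nos2* 17.8, 8.88 and 15.7 against 0, 9.38 and 3.46 CPM (1.91, interval 0.29 to 3.54, adjusted p = 0.103), both with overlap. *Duoxa2* had 23, 7 and 19 footprints against 1, 0 and 0 and was too low to be tested. Of 5 genes tested 1 was called higher and 2 lower, beside 6.63% and 9.84% of all genes. *Reg3b* and *Reg3g* were called in each of 11 alternatives, and *Duox2* in 7, without the call when *Rptor* fl/fl culture 1 (adjusted p = 0.0861), 2 (0.0640) or 3 (0.0529) was left out. Without SCe culture 3 the *Duox2* difference was 5.17.

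Other families gave context for the footprints. Of 4 NADPH oxidase genes tested, *Nox1*, the epithelial NADPH oxidase, and its organizer *Noxo1* were called higher than in SCe cultures (log2 differences 2.03 and 1.46, adjusted p = 0.00256 and 0.00533). *Cyba* was called lower (-0.855). *Reg1* (2.36, adjusted p = 0.0121) and *Reg4* (2.35, adjusted p = 0.0117) were called higher as well. Of 8 goblet cell markers 6 and of 8 enterocyte markers 4 were called higher and none lower. No neutrophil, macrophage or lymphocyte marker passed the count filter in organoid Ribo-seq. Haemoglobin reads were present in SCe cultures 1 and 3 (*Hbb-bs*, 120 and 61.8 CPM against 0.853 CPM in culture 2), and their part in the results was not tested.

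Translation efficiency, the footprint level relative to RNA, was asked for as the interaction of assay and group, across *Rptor* fl/fl cultures whose genotype differed between the assays by RPL22.HA. Here too the groups differed in genotype and medium together. The fit did not pair the assays of SCe organoids, although their lines may be shared. None of the 5 genes tested passed in edgeR, of which 0 had an unadjusted p under 0.05, and DESeq2 called 0 as well, beside 1.12% of all genes called higher and 1.81% lower. The log2 differences between *Rptor* fl/fl and SCe cultures were 0.70 for *Reg3b* (interval -2.46 to 3.85), 0.95 for *Reg3g* (-1.20 to 3.11), 1.19 for *Reg3a* (-2.95 to 5.33), 2.20 for *Nos2* (-0.91 to 5.31) and -1.35 for *Duox2* (-3.09 to 0.39). These intervals are wide enough to hold changes of over 2-fold in either direction for *Reg3a*, *Reg3b* and *Reg3g*.

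Set beside each other, the 10 genes summed to 3397 to 3703 CPM in WT mice and 10700 to 11470 CPM in *Rptor* fl/fl mice, and to 60.4 to 104 CPM of footprints in *Rptor* fl/fl and 338 to 929 CPM in SCe cultures. By RNA-seq the organoid sums were 83.2 to 128 CPM in WT, 108 to 117 CPM in *Rptor* fl/fl and 154 to 2634 CPM in SCe lines. By footprints the highest organoid levels, both in SCe culture 2, were 461 CPM for *Reg3b* and 451 CPM for *Reg3g*, below every mouse. By RNA-seq SCe line 3 reached 1323 CPM of *Reg3b* and 1265 CPM of *Reg3g*, which are RNA and not footprint levels. *Retnlb*, *S100a8*, *S100a9* and *Lcn2* had at most 4 footprints in any organoid culture. Mouse and organoid libraries differ in assay, tissue, Cre driver and counting sequence, which cannot be told apart, so no test was made.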

How the data were processed

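Footprint and RNA libraries were made by the authors from organoids and mouse small intestine. Per the submitters' processing notes and the study's methods, adapters were trimmed with cutadapt 1.18 and reads were quantified with Salmon 1.1.0 on protein-coding sequences of GENCODE vM21 (mm10). The deposited values are estimated counts (expected counts) per transcript, unscaled for depth. A deposited table of translation efficiency, with the authors' ratios and p-values, was not used. The values of a gene's transcripts were added, as were repeat libraries from 1 organoid line, before rounding to whole numbers. Genes were filtered with filterByExpr, scaled with TMM and tested with the quasi-likelihood test of edgeR 4.0.16 in R 4.3.3, each comparison on its own groups, with Benjamini-Hochberg adjustment over all genes at 0.05. DESeq2 1.42.0 was an alternative. The study calls the WT and *Rptor* fl/fl RNA-seq lines biological replicates. The sources do not say so for the other organoid groups, whose p-values may measure technical spread. In each other list, at most 2 genes with the smallest adjusted p are named, or with the most footprints in mice, and the 5 genes most like summed *Reg3*; further genes were named after their values were seen. The 10 genes and all lists were chosen with earlier results of these data known.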

Additional observations from a re-analysis of the deposited data

How the results depend on the processing

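The number of the 10 genes called for *Rptor* fl/fl against WT organoids was 1, and 0 at a threshold of 0.01, 2 with DESeq2, 2 with the replicate number as a block and 3 with technical libraries as separate replicates, and it ranged from 0 to 2 when a line was left out. For SCe against WT it was 4, 0 at 0.01 and 1 to 4 without a line, and for *Rptor* fl/fl against SCe 4, 2 at 0.01, 2 with the block and 2 to 5 without a line. Organoid Ribo-seq stayed between 2 and 4 and translation efficiency at 0 throughout. In mice the median difference of 2.04 lay between 1.83 and 2.25 when a mouse was left out, and was 2.06 with the block. Replicate numbers are shared, but the labels do not say that a number marks a shared animal or day. The study's methods mention a further VillinCre.ERT2 *Rptor* fl/fl set, induced in vitro to give paired samples, but tie no number to it. Deviations of RNA-seq lines with the same number correlated (r = 0.434 for WT and *Rptor* fl/fl, 0.25 and 0.231 for WT and SCe, 0.347 and 0.314 for *Rptor* fl/fl and SCe, with 2 pairs each). With 2 lines in a group the deviations mirror each other, so 0.434 is a single value. Line 2 of WT and of *Rptor* fl/fl correlated about as closely with SCe line 3 (0.223 and 0.314). The values set lines numbered 1 apart and do not show that numbers are matched. Deviations of organoid Ribo-seq did not correlate by number (-0.064 to 0.028), and lines numbered 1 were low in Y-linked reads in each organoid group. The block ended the call of *Reg3b* in SCe against WT (3.78, adjusted p = 0.0849) and those of *Reg3b* (-3.95, 0.167) and *Reg3g* (-2.64, 0.1) against SCe, and brought *Duox2* past the threshold against WT (1.35, 0.0136). The direction turned only for genes not called in the analysis reported. With the block these were *Nos2* (0.79) and *Reg3a* (2.12) in RNA against SCe and *Reg3g* (-0.27), *Reg3b* (-1.05) and *Reg3a* (-1.51) in translation efficiency. When a library was left out, the ranges that crossed 0 were -6.15 to 12.08 for *Retnlb*, -0.64 to 0.21 for *Reg3b* and -0.27 to 1.03 for *Reg3g* in *Rptor* fl/fl against WT (also -0.57 and 0.16), -1.12 to 0.20 for *Nos2* (also 0.03) and -1.33 to 0.25 for *Reg3a* in SCe against WT, -0.75 to 0.57 for *Nos2* (also 0.15) and -1.12 to 0.47 for *Reg3a* in *Rptor* fl/fl against SCe, and -0.079 to 1.59 for *Reg3b* (also -0.02) and -1.71 to 1.195 for *Duox2* in translation efficiency, and -0.12 to 0.018 for *Reg3a* in mice. The offset for effective length ended the *Duox2* call in footprints (2.85, adjusted p = 0.1). Effective length in place of length, or total counts in place of TMM, moved 26 of 140 levels by more than the SD of their group. The cause of these changes was not tested. Depth limits the footprint values, with as few as 1106178 assigned reads in an SCe culture and 772077 in a WT mouse.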

Other observations

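*Retnlb* was present in organoids by line and not by genotype. Line 1 of WT and of *Rptor* fl/fl organoids held 805 and 1059 counts and line 2 held 0 and 6. The lines numbered 1 also had few reads of the Y-linked genes *Ddx3y*, *Eif2s3y*, *Kdm5d* and *Uty*, 7.29 and 7.35 CPM in sum, against 227 and 242 CPM in the lines numbered 2. SCe line 1 (7.39 CPM) shared this with no *Retnlb* read. In Ribo-seq the cultures numbered 1 were low in Y-linked reads too, with 2.65 CPM in *Rptor* fl/fl and 2.16 CPM in SCe. Neither they nor the other organoid cultures had a *Retnlb* footprint. All 6 mice had 91 to 121 CPM of the Y-linked genes.

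Footprints on separate 5′ region entries were counted in organoid Ribo-seq and were left out of the values above. For *Nos2* they numbered 8, 6 and 13 in cultures labelled *Rptor* fl/fl and 0, 2 and 4 in SCe cultures, which is 0.952 to 1.58 CPM and up to 1.71 CPM. *Reg3b* had 3 and 5 in SCe cultures 2 and 3, and *Duox2* had 2 in *Rptor* fl/fl culture 3.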
